A study of Bos taurus with 47 samples.

Results

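In Holstein cattle, 92 of 24616 gene identifiers were shared by liver and kidney at levels well above those of every other tissue. They were chosen by the mean level in each of 15 tissue labels, in FPKM, the fragments counted per kilobase of a transcript in every 1000000 fragments. Liver and kidney had to be the highest labels and lie less than 4-fold apart, and the lower of both had to reach 1 FPKM and stand 4-fold or more above the third label. Albumin, ENSBTAG00000017121, was left out. Because these values chose the genes, the level in liver and kidney and the distance to the other labels are described here without a test. By the same limits, 242 identifiers stood out in liver alone and 197 in kidney alone.

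The libraries were made from total RNA of tissue samples, 1 library per tissue and animal. The same 4 animals gave liver, kidney, ileum, rumen, adipose tissue, frontal cortex, heart, spleen, lung and muscle. These were males A and B, a female whose mammary gland was labelled lactating (called the lactating cow) and a female whose gland was labelled dry (called the dry cow). Ovary and uterus came from both cows, each state of the gland from 1 cow, and lymphocytes from a further male, which makes 47 libraries. The series text speaks of fewer animals and tissues than the labels, which were followed. No age, treatment or allele is given. Sex was carried by 2 animals on each side, so it cannot be told apart from the animal or from the state of the cows.

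Liver and the proximal tubule of the kidney are known as the organs that make glucose, break down amino acids, and take up and clear organic anions, drugs and their conjugates, with many peroxisomes and mitochondria for the purpose. Genes for such tasks are a textbook example of expression shared by both organs. The deposited table holds Ensembl identifiers without names, and none could be matched to a name here, so no member is assigned to any of these tasks and the labelled tissues could not be checked against named markers.

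Summed FPKM ran from 576130 to 964931 per library. Read counts are not part of the table and the depth is unknown, but steps among low values gave a relative depth of 0.697 to 1.45 over all libraries and of 0.844 to 1.45 over liver and kidney. These are rough, since the commonest ratio between libraries held only 0.415% of the ratios in the lowest pair. Most libraries held traces of transcripts from other tissues, followed here through 18 genes restricted to liver, 10 to rumen and 9 to muscle. Traces of the liver and rumen genes were under 50 ppm (parts per 1000000 of their level in that tissue) in 10 libraries, namely the lymphocytes and 9 of the 13 libraries of the lactating cow. Her liver, muscle, rumen and lactating gland had them, and her kidney did not. The same 10 libraries held the muscle genes at 3.26 to 76.3 ppm. Outside kidney, 9 of them held 13 genes restricted to kidney at 57.3 to 369 ppm (median 170.5), against 0 to 2004 ppm (median 206) in the libraries of other tissues that had liver and rumen traces. Among libraries outside liver and kidney, 19 to 29 members (median 25) were listed at 0 in those lacking liver and rumen traces and 10 to 28 (median 18.5) in those with them.

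The 92 genes were abundant in both organs. The smaller of the liver and kidney means had a median of 107 FPKM and ran from 1.17 to 1708 FPKM. It lay under 10 FPKM for 6 members, from 10 to under 100 FPKM for 38 and at or above 100 FPKM for the others. Together the members held 3.59% ± 0.289 of the summed FPKM of liver and 3.93% ± 0.316 of that of kidney (SD, n = 4 each). By animal, in the order male A, male B, lactating cow and dry cow, the share was 3.19%, 3.87%, 3.67% and 3.63% in liver and 3.51%, 3.88%, 4.04% and 4.27% in kidney. The ranges of both organs overlapped, and male A had the lowest share in each. The 10 most abundant members held 44.7% of the members' summed mean FPKM in liver and 45.8% in kidney, and 5 members were among these in both organs. In such bulk samples fewer cells of 1 kind and less RNA per cell cannot be told apart.

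**Figure D1:**
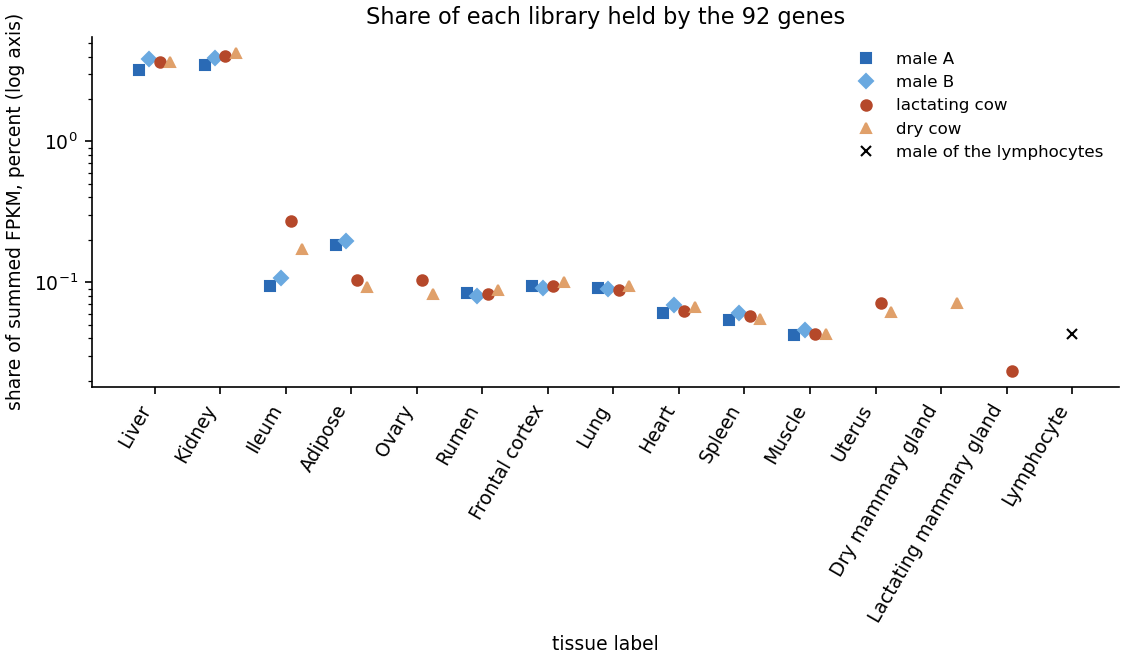
Share of the summed FPKM of each library held by the 92 genes, in percent on a log axis, by tissue label; each point is 1 library and its shape and colour mark the animal. Liver and kidney lie between 3.19% and 4.27%, and all other libraries lie at or under 0.273%.

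Of the other labels, ileum came closest, with a share of 0.162% ± 0.0816 (SD, n = 4), followed by adipose tissue with 0.144% ± 0.0534 (SD, n = 4). Their ranges overlapped, from 0.0937% to 0.273% in ileum and from 0.0929% to 0.197% in adipose tissue, and the order turned on the lactating cow. Without that animal the share was 0.125% ± 0.0419 in ileum and 0.158% ± 0.0565 in adipose tissue (SD, n = 3 each), and in both males adipose tissue lay above ileum. The lactating gland had the lowest share, 0.0235%. Between 90 and 92 members reached 1 FPKM in each liver or kidney library, against 23 to 46 in each library of another label.

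The most abundant member was ENSBTAG00000015358. By animal, in the same order as above, it had 1485, 1764, 2291 and 1293 FPKM in liver and 2264, 2484, 3246 and 3239.8 FPKM in kidney. Kidney was higher in each animal, but the lactating cow's liver reached above male A's kidney. The means were 1708 ± 434 FPKM in liver and 2809 ± 509.6 FPKM in kidney (SD, n = 4 each).

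ENSBTAG00000001936 had 710.3, 804, 1372 and 973 FPKM in liver and 1282, 2088, 2248 and 2916 FPKM in kidney. Again kidney was higher in all 4 animals while the ranges overlapped, with the lactating cow highest in liver and the dry cow highest in kidney. Its means were 965 ± 292 FPKM in liver and 2134 ± 672 FPKM in kidney (SD, n = 4 each).

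On the liver side, ENSBTAG00000005586 had 932, 1295, 813 and 1250.2 FPKM in liver and 710.7, 587, 706 and 587 FPKM in kidney. All liver libraries lay above all kidney libraries, and kidney varied less among the animals than liver. The means were 1072 ± 237 FPKM in liver and 648 ± 70.0 FPKM in kidney (SD, n = 4 each). This member also reached at least 1 FPKM in all 13 other labels, with frontal cortex next at 68.0 FPKM.

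ENSBTAG00000004175 had 1349, 1866, 1707 and 1438 FPKM in liver and 429.7, 557, 608 and 535 FPKM in kidney. The organs were far apart in every animal, at a ratio of means of 2.99 (liver over kidney). Male A was lowest in both organs.

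**Figure D2:**
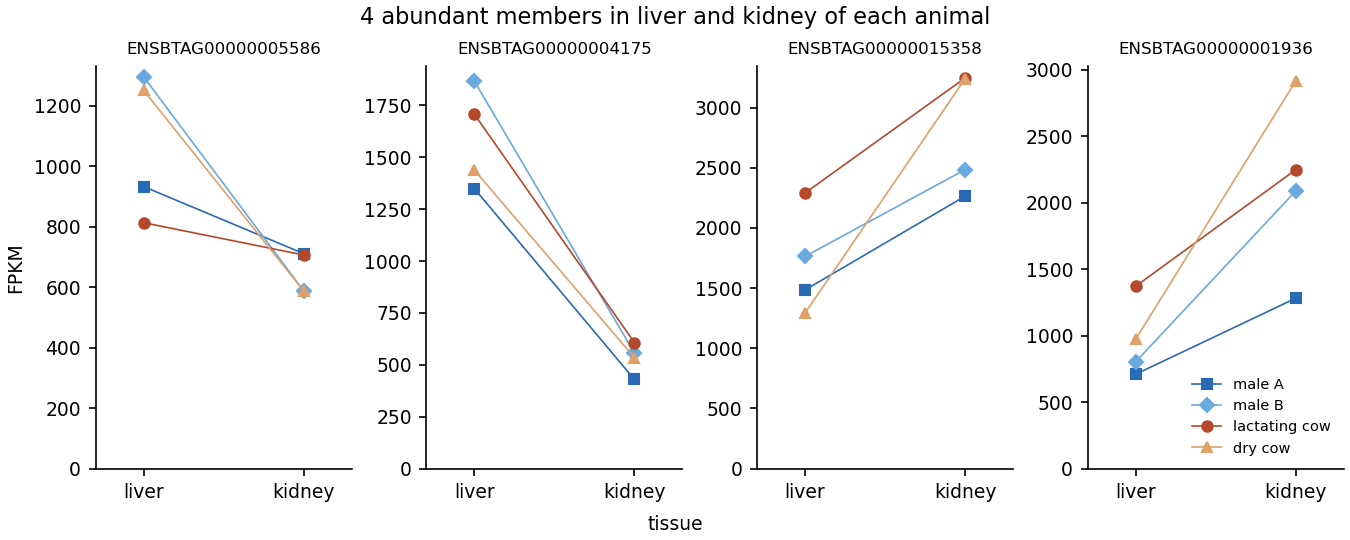
FPKM of 4 abundant members in liver and kidney; each line joins both organs of 1 animal, and each panel has its own linear axis from 0. The first 2 panels show the pair with the higher mean in liver, where all lines descend, and the others the pair with the higher mean in kidney, where all lines ascend.

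Neither organ led the group as a whole. The mean was higher in liver for 43 members and in kidney for 49, and the ratio of liver to kidney had a median of 0.974. It lay within 2-fold for 54 members, within 1.5-fold for 39, and reached 3-fold or more for 12. Across the 92 genes the log2 means of liver and kidney correlated with a Pearson r of 0.888, a description over genes that share the same 8 libraries and were chosen to lie within 4-fold of each other.

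All 4 liver libraries lay above all 4 kidney libraries for 28 members, and all 4 kidney libraries above all 4 liver libraries for 27. The organs overlapped for the other 37. Among 10625 genes with a mean of at least 1 FPKM in both organs these shares were 9.52% and 68.0%, and the rule's limit on the ratio bears on the members' counts. Within animals, liver was higher in all 4 for 32 members and in none for 38. The count depended on the scale between organs, since the median gene lay at -0.84 on the log2 scale (liver minus kidney) as deposited and at -0.08 after quantile normalization, where 54 members were higher in liver and 11 had changed side. Without the dry cow, 48 members were higher in liver, and the median member's difference was 0.07 in place of -0.03 (log2, liver minus kidney).

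The extremes of the ratio, picked after their values were seen, were unlike in level. ENSBTAG00000012801 lay farthest to the kidney side, with 46.7, 47.0, 43.4 and 34.1 FPKM in liver and 172, 137, 142 and 190.1 FPKM in kidney, a ratio of 0.267 (liver over kidney). Its libraries were far apart in every animal. ENSBTAG00000021180 lay farthest to the liver side at a ratio of 3.61, but with 1.02, 1.87, 5.02 and 9.55 FPKM in liver and 0, 1.29, 0.670 and 2.88 FPKM in kidney it was among the faintest members, and the organs overlapped.

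**Figure D3:**
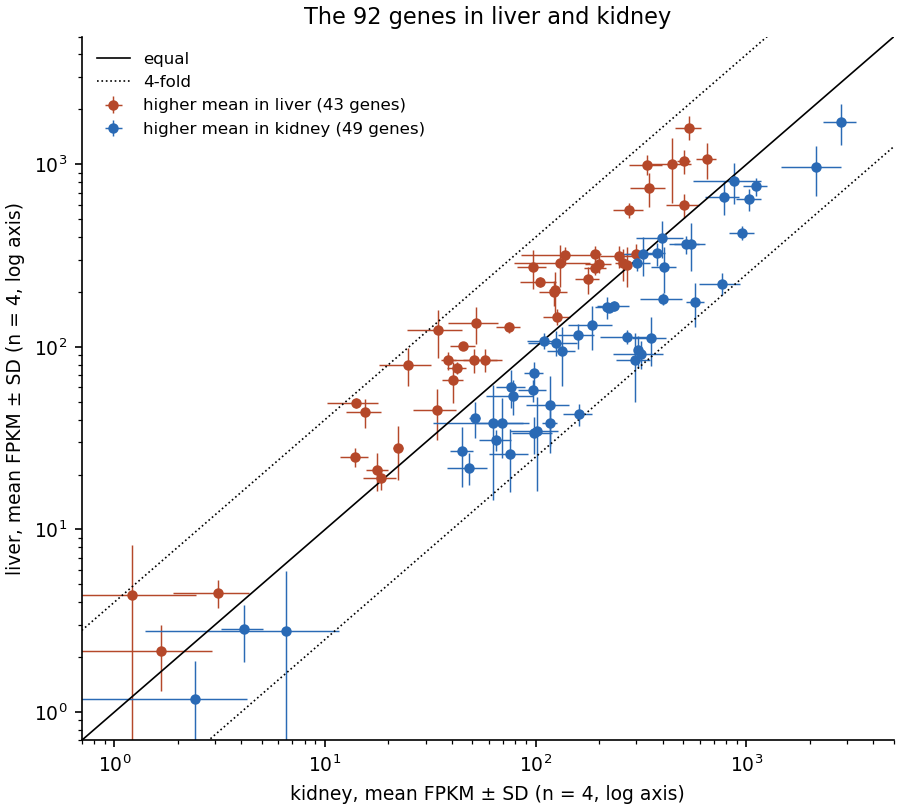
Mean FPKM of each of the 92 genes in liver (vertical) and kidney (horizontal), both on log axes, with bars of 1 SD over 4 animals, some of which run past the axes; colour marks the organ with the higher mean. The solid line marks equal levels and the dotted lines the 4-fold limit of the rule; 43 genes lie on the liver side and 49 on the kidney side.

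Levels varied between animals somewhat more for the median member than for the median gene. The coefficient of variation (SD over mean) over the 4 animals had a median of 18.8% in liver and 17.5% in kidney. The medians of all 10625 genes at 1 FPKM in both organs were 17.6% and 14.1%. The coefficient was under 20% for 49 members in liver and for 58 in kidney, and at or above 50% for 5 members in liver and for 4 in kidney. Deviations from the mean of an organ's 4 libraries went together in both organs of an animal, given as a description since the members share libraries. Their Pearson correlation over the members was 0.649, 0.453, 0.406 and 0.284 for male A, male B, the lactating cow and the dry cow, and 0.270, 0.353, 0.246 and 0.0970 over all genes tested.

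The choice of genes was nearly the same without any 1 animal. Applied to the means of the other animals, the rule found 89, 89, 93 and 90 identifiers when male A, male B, the lactating cow or the dry cow was left out, of which 88, 88, 88 and 85 were members. The animal left out was judged over the 10 tissues that all 4 animals gave, without lymphocytes, ovary, uterus or mammary gland. There liver and kidney were again the highest labels for 88, 88, 93 and 89 of the identifiers found. They were at least 4-fold above the third label for 80, 81, 75 and 86. The same organ was the higher one for 81, 81, 76 and 82. Single animals were also taken over these 10 tissues, which is not like for like with the 15 labels that chose the members. Applied to them in the same order, the rule found 102, 112, 90 and 103 identifiers. Of these, 76, 84, 75 and 81 were members and the other 26, 28, 15 and 22 were not. The rule recovered 56 members in all 4 animals, 22 in 3, 12 in 2 and 2 in 1.

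The members differed in how far the other labels lay below. The second label was 4.01 to 1519 times the third label, with a median of 13.4. It was at least 10 times the third label for 52 members and at least 100 times for 21, but under 6 times for 24. ENSBTAG00000000229, which had the widest gap, had 105, 117, 107 and 127 FPKM in liver and 173, 283, 327 and 299 FPKM in kidney, against 0.0750 FPKM in muscle, the next label. ENSBTAG00000020404, which followed, had 186, 327, 282 and 352 FPKM in liver and 59.6, 125, 169 and 165 FPKM in kidney, against 0.130 FPKM in muscle. Both were picked after their values were seen.

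By their levels elsewhere the members fell into 3 groups. In 30 of them no other label reached 1 FPKM, and the smaller organ mean had a median of 47.5 FPKM. In 47 members between 1 and 12 of the other labels reached 1 FPKM (median of the smaller organ mean 108 FPKM), and in 15 members all 13 did (median 249 FPKM). In this last group, present at 1 FPKM or more in every label, the second label was 4.01 to 12.9 times the third label.

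**Figure D4:**
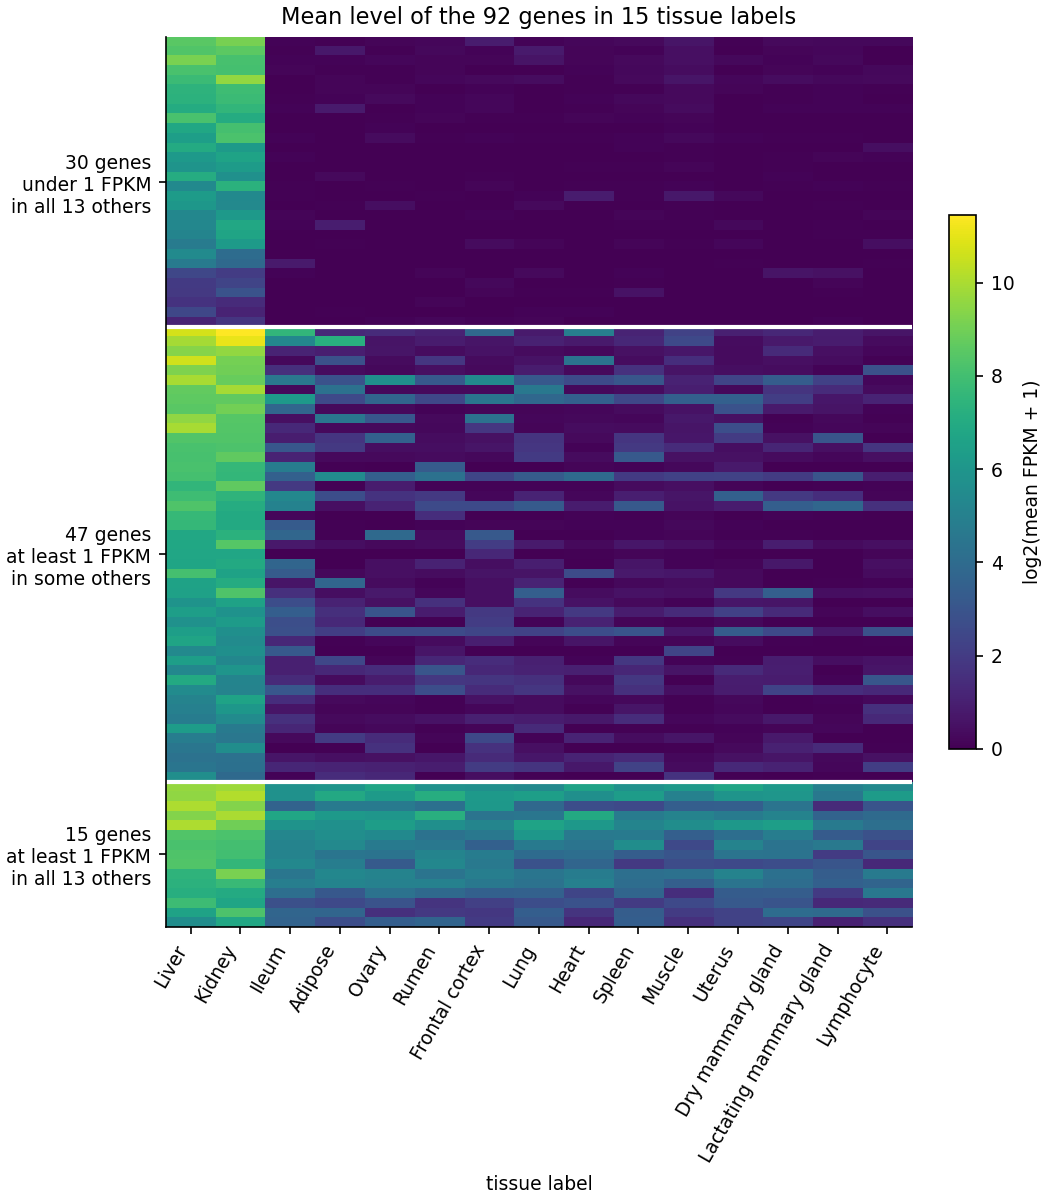
Mean level of the 92 genes (rows) in the 15 labels (columns), as log2(mean FPKM + 1), with liver and kidney at the left. White lines part the 30 genes under 1 FPKM in all 13 other labels, the 47 at 1 FPKM in some of them and the 15 at 1 FPKM in all of them; within each block, genes run from high to low by the smaller organ mean.

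The 30 confined genes summed to 3196 to 3858 FPKM in the liver libraries and 4069 to 5062 FPKM in the kidney libraries. In the other 39 libraries they summed to 0.377 to 9.11 FPKM, with a median of 2.17. The highest of these was the muscle of male B. In that library the 13 genes restricted to kidney stood at 2004 ppm of their kidney level, while their median over the libraries outside liver and kidney was 183 ppm. The part of such traces in the low values was not tested.

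The third label was ileum for 21 members, adipose tissue for 10 and rumen for 9. It was lymphocytes, ovary or frontal cortex for 8 each, muscle and lung for 7 each, spleen and the dry gland for 4 each, uterus for 3, heart for 2 and the lactating gland for 1. Ileum is the last stretch of the small intestine, whose absorptive cells share transporters and metabolic enzymes with both organs in textbook accounts.

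Values on both sides lay near each other at the limit over the third label, but were farther apart at the minimum level. The 5 members nearest to the limit over the third label lay at 4.01 to 4.39 times it, and the 5 identifiers just outside at 3.74 to 3.78 times. Nearest the minimum level, 3 members had a smaller mean of 1.17 to 1.67 FPKM and 3 identifiers outside had 0.259 to 0.371 FPKM. Members nearest to the limit between organs lay at 3.57 to 3.75-fold and those just outside at 4.24 to 5.04-fold. That limit alone left out 34 identifiers, 27 higher in liver and 7 higher in kidney.

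Similarity of profile to the members named few genes of any level. Over the means of 15 labels, the identifiers outside the group most like the members' mean profile reached a Pearson r of 0.977 to 0.991. All were under 0.35 FPKM in both organs, and the members themselves lay between 0.833 and 0.993, with a median of 0.953.

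Ileum was set against the other 12 labels outside liver and kidney, to ask whether the members were raised there. The rule caps every label from the third down but does not fix which label that is. In ileum 24 of the 92 members (26.1%) were at least 2-fold higher than the unweighted mean of the 12 labels and none was at least 2-fold lower, against 18.7% and 1.97% of all 16634 genes tested (limma on log2(FPKM + 1), adjusted p under 0.05 and a difference of at least 1). Without the size limit and the adjustment, at an unadjusted p under 0.05, 41 members were higher and 6 lower, against 50.5% and 16.1% of all genes. The median difference was 0.10 over the members and 0.28 over all genes. The 30 members under 1 FPKM in all 13 other labels could not reach a difference of 1 on this scale in either direction. The rule also capped these levels, so the members' shares are not like for like with those of all genes. For 18 of the 24 members ileum was the third label, whose level the rule used. The test is thus not independent of the choice of genes. ENSBTAG00000015358, the most abundant member, had 51.2, 100.2, 356 and 226 FPKM in the ileum of male A, male B, the lactating cow and the dry cow, while its highest value in the 12 labels was 31.6 FPKM, in heart. The difference was 5.46 ± 0.25 on the log2 scale (SE, limma adjusted p = 3.06e-20). This fit pools the spread over all labels and treats libraries of the same animal as independent. Its SE and p-value do not measure the spread among the ilea.

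ENSBTAG00000013819 had 15.4, 16.2, 55.3 and 22.6 FPKM in the same ileum libraries, against at most 13.6 FPKM, in rumen, elsewhere in the 12 labels. Its difference was 4.26 ± 0.21 (SE, limma adjusted p = 1.47e-19), with the same limit on the SE and p-value. The ileum of the lactating cow was the highest of the 4 for 22 of the 24 members, and both cows lay above both males for 20.

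Males and females were compared within liver, within kidney and between both. With each sex carried by 2 animals, few members passed. Each SE and p-value rests on 1 spread per gene, pooled over all 20 cells of sex and tissue. It does not measure the spread between animals within 1 tissue. In liver 2 members were lower in males and none was higher, against 0.164% and 0.327% of all 16503 genes (limma over 40 libraries, adjusted p under 0.05). At an unadjusted p under 0.05, 6 were lower and 8 higher, against 1.29% and 8.19%. The rule gave all 92 members a mean of at least 1 FPKM in both organs, which 10625 of the 16503 genes reached. The members' shares in liver, in kidney and in the difference between both are thus not like for like with those of all genes. ENSBTAG00000021180 had 1.02 and 1.87 FPKM in male livers and 5.02 and 9.55 FPKM in female livers, a difference of -1.73 ± 0.29 (log2, SE, limma adjusted p = 0.00244). Males lay below females, at low levels.

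ENSBTAG00000000123 had 52.9 and 68.1 FPKM in male livers and 133 and 84.6 FPKM in female livers. Both males lay below both females, the lactating cow farthest away, at -0.81 ± 0.18 (log2, SE, limma adjusted p = 0.0382). Without each animal in turn, 0 to 1 members were lower in males in liver. Neither was called when log2(FPKM + 0.1) was used or when the fit held the 8 liver and kidney libraries alone.

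In kidney 1 member was lower in males and none was higher, against 0.248% and 0.933% of all genes, with 9 lower and 4 higher at an unadjusted p under 0.05 (2.33% and 6.73% of all genes). ENSBTAG00000020404 had 59.6 and 125 FPKM in male kidneys and 169 and 165 FPKM in female kidneys, at -0.94 ± 0.24 (log2, SE, limma adjusted p = 0.0496). Male A lay far below the others, and the count was 0 without male A, 2 without male B and 0 without the lactating cow. It was also 0 after rescaling or quantile normalization, without the filter, with 0.1 FPKM added, and in the fit of 8 libraries. For the sex difference in liver against that in kidney no member passed the test, against 0.0788% of all genes with a higher and 0.0727% with a lower difference in liver (limma, adjusted p under 0.05), and at an unadjusted p under 0.05 the members numbered 4 and 1, against 2.24% and 1.49%.

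Outside both organs, males and females were also compared in ileum and adipose tissue, comparisons added after the shares had been seen. In ileum 27 members (29.3%) were lower in males and 4 (4.35%) were higher, against 9.02% and 15.3% of all genes (limma, adjusted p under 0.05). The called decreases ran from -3.18 to -0.40 with a median of -1.36 (log2). The median over all 92 members was -0.08, and over all genes 0.14. All members passed the filter through liver and kidney, and 43 to 46 reached 1 FPKM in each ileum library. Their shares and median are thus not like for like with those of all genes. ENSBTAG00000001392 had 0.985 and 1.42 FPKM in male ilea and 40.6 and 8.52 FPKM in female ilea, and differed by -3.18 ± 0.36 (log2, SE, limma adjusted p = 5.36e-07). The female ilea lay far apart. The SE pools tissues where this gene was near 0, such as adipose tissue at 0.0617 to 0.419 FPKM, and does not measure the spread among ilea.

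ENSBTAG00000010236 had 4.80 and 16.1 FPKM in male ilea and 100.7 and 39.1 FPKM in female ilea, and differed by -2.68 ± 0.37 (log2, SE, limma adjusted p = 7.95e-06). Of the 27 members, 25 had both males below both females and 26 were highest in the lactating cow. The 4 members higher in males differed by 0.62 to 1.49 (log2), and the count was 2 without male A, 2 without the lactating cow and 1 after quantile normalization. ENSBTAG00000031631 led them with 3.34 and 2.34 FPKM in male ilea and 0.322 and 0.395 FPKM in female ilea. ENSBTAG00000004674 followed with 3.64 and 2.58 FPKM in male ilea and 0.301 and 0.969 FPKM in female ilea.

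The count depended on single animals. The members lower in males numbered 9 without the lactating cow, 14 without male A and 9 to 26 over the 4 omissions. The ileum and adipose libraries of the lactating cow were among those that lacked liver and rumen traces. The liver-restricted genes stood at 275 and 120 ppm of their liver level in male ilea and at 13.5 and 120 ppm in those of the lactating and the dry cow. The kidney-restricted genes stood at 165 and 340 ppm in male ilea and at 183 and 308 ppm in female ilea, and the part of this in the sex differences was not tested. Of the 24 members higher in ileum than elsewhere, 20 (83.3%) were also lower in males there, against 29.6% of the 3108 such genes at large. Both shares come from the same ileum libraries, and the difference between them was not tested.

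In adipose tissue most called members were higher in males. There 16 members (17.4%) were higher in males and 2 (2.17%) were lower, against 5.13% and 6.59% of all genes (limma, adjusted p under 0.05). In each adipose library 35 to 38 members reached 1 FPKM, so these shares are not like for like either. ENSBTAG00000014470 had 26.2 and 54.4 FPKM in male adipose tissue and 3.75 and 3.20 FPKM in female adipose tissue, and differed by 3.12 ± 0.30 (log2, SE, limma adjusted p = 3.19e-07). ENSBTAG00000020597 had 36.6 and 24.2 FPKM in males and 9.74 and 2.62 FPKM in females, and differed by 2.30 ± 0.32 (log2, SE, limma adjusted p = 3.15e-05). For all 16 members both males lay above both females. The count was 9 without male A and 9 to 14 over the 4 omissions.

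The lower pair in adipose tissue was ENSBTAG00000023384, with 3.57 and 2.16 FPKM in males and 5.65 and 7.95 FPKM in females, and ENSBTAG00000004226, with 1.04 and 1.01 FPKM in males and 3.19 and 2.48 FPKM in females. Neither had overlapping libraries between the sexes, but 0 to 1 members were lower in adipose tissue without each animal in turn, and 0 after quantile normalization. The 27 members lower in males in ileum and the 16 higher in males in adipose tissue had 6 in common, 22.2% of the ileum list and 37.5% of the adipose list.

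**Figure D5:**
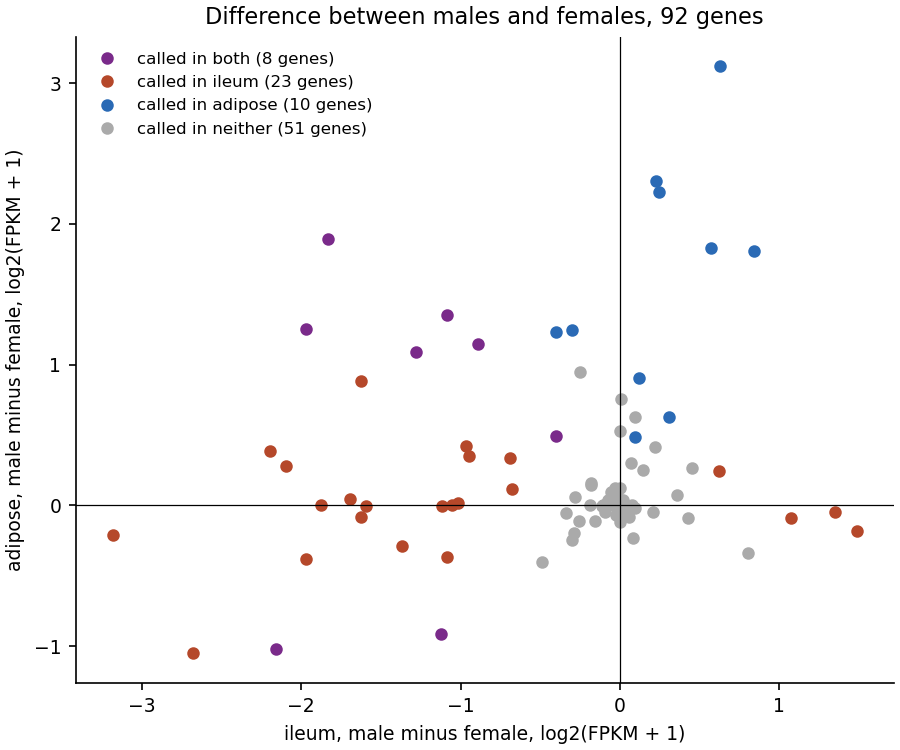
Male minus female difference of each of the 92 genes on the log2(FPKM + 1) scale, in ileum (horizontal) and adipose tissue (vertical); each point is 1 gene and colour shows in which tissue it passed an adjusted p under 0.05. Most points called in ileum lie left of 0 and most called in adipose tissue above 0, with 8 genes called in both, 23 in ileum alone, 10 in adipose tissue alone and 51 in neither.

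The difference between the tissues was tested itself. The male minus female difference was lower in ileum than in adipose tissue for 26 members and higher for 3, against 7.59% and 16.0% of all genes (limma, adjusted p under 0.05). Members near 0 in both tissues remained among those tested, so this comparison with all genes has the same limit. ENSBTAG00000001936, the second most abundant member in kidney, had 23.5 and 9.54 FPKM in male ilea and 81.6 and 38.6 FPKM in female ilea. In adipose tissue it had 182 and 295 FPKM in males and 65.8 and 57.8 FPKM in females. The males lay below the females in one tissue and above them in the other, and the differences were -3.72 ± 0.54 apart (log2, SE, limma adjusted p = 4.44e-05).

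ENSBTAG00000019625 had 3.32 and 5.02 FPKM in male ilea and 28.4 and 12.6 FPKM in female ilea. In adipose tissue it had 15.8 and 19.3 FPKM in males and 8.44 and 5.33 FPKM in females, and the differences were -3.23 ± 0.40 apart (log2, SE, limma adjusted p = 6.3e-06). Its coefficient of variation over the 4 animals was 19.6% in liver, above the members' median, and 3.88% in kidney, below it. Without male A 12 members, and without the lactating cow 13, had a lower difference in ileum. The 3 higher differences became 1 to 2 without each animal and 0 after quantile normalization.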

How the data were processed

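Total RNA was extracted with Trizol, DNase treated, cleaned on RNeasy columns and sequenced from TruSeq libraries as paired reads of 150 bases, per the labels' protocols. Trimmomatic 0.39, STAR, Cufflinks and the assembly UMD3.1 are given, without order or settings, in the submitters' processing notes. The authors deposited 1 table of FPKM values with 51 columns. Of these, 47 were matched to a sample by name, that of male A's muscle despite 1 extra letter, and the other 4 were left aside.

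Since FPKM is scaled to each library, dominant genes depress the rest. Tests used log2(FPKM + 1), which understates the change of low genes, and genes that reached 1 FPKM in 2 or more libraries. All 92 members passed this filter, through their liver and kidney levels. Linear models came from limma 3.58.1 (R 4.3.3, intensity trend, Benjamini-Hochberg adjustment over all genes tested, threshold 0.05), and the same code was tested on simulated data. The simulation gave each gene 1 spread over all tissues and no effect of the animal. It therefore cannot show how the calls fare under unequal spread or paired libraries. Males and females were compared in 20 cells of 2 libraries over 40 libraries. The same animals gave each tissue, so libraries are paired by animal. The animal's deviations in liver and kidney correlated at 0.0970 to 0.353 over all genes tested and at 0.284 to 0.649 over the members. The main fits held no term for the animal.

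The members and lists were chosen with earlier results of these data known, and the comparisons of sexes in ileum and adipose tissue were added after seeing the data. Named identifiers lead their comparison by difference among called members, or by level among the 10 most abundant, at most 2 per direction. Exceptions are stated. Marker and pathway lists by symbol could not be applied, since 0 identifiers matched a name in the reference table of 37063 genes (ARS-UCD2.0). Sequences and coordinates were not used here. Tables and plots were made with pandas 2.3.3, numpy 2.4.6 and matplotlib 3.10.9 in Python 3.11.15. Alternatives covered the pseudocount, the filter, rescaling, quantile normalization, the limits of the rule, the libraries used and the animal as a block.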

Additional observations from a re-analysis of the deposited data

Results flagged for a closer look

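The members' share of the summed FPKM in muscle was 0.0457% in male B, far from the other 3 muscle libraries, which lay between 0.0426% and 0.0429%. In the same library 34 members reached 1 FPKM, against 23 to 26 in the other 3. Genes restricted to kidney stood at 2004 ppm of their kidney level in this library and at 0, 157 and 122 ppm in the muscle of male A, the lactating and the dry cow. The part of these traces in the raised share was not tested. This was the only 1 of 47 groups examined in which a library stood so far apart, and chance gives about 1 in 20 such groups.

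The male minus female difference departed between ileum and adipose tissue for 4 named members. It was lower in ileum by -3.72 for ENSBTAG00000001936 and by -3.23 for ENSBTAG00000019625, and higher in ileum by 1.67 for ENSBTAG00000031631 and by 1.39 for ENSBTAG00000004674 (log2, limma adjusted p under 0.05 for each).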

How the results depend on the processing

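The number of members lay between 68 (6-fold over the third label) and 108 (3-fold) over the alternatives for that factor, the minimum level, the scaling, the labels used and each animal left out. Calls in liver and kidney were few and unsteady. Adding 0.1 in place of 1 FPKM left 0 lower in males in either organ and gave 5 members lower in ileum than in the 12 labels. Without a filter, 0 were lower in kidney and 1 in adipose tissue. Rescaling to the same sum gave 1 higher and 1 lower in liver and 0 lower in kidney. Quantile normalization gave 0 lower in kidney, 1 higher in ileum, 0 lower in adipose tissue, 0 with a higher difference in ileum than in adipose tissue, and 3 lower in ileum than in the 12 labels. The 8 liver and kidney libraries alone gave 0 lower in liver and 0 in kidney. Members lower in ileum than in the 12 labels numbered 1 without lymphocytes, 1 without the libraries lacking liver and rumen traces, and 1 with the animal as a replicate block without lymphocytes. The paired fit with the replicate block gave 28 lower and 3 higher differences between ileum and adipose tissue and 0 between liver and kidney. Comparisons of the sexes within a single tissue were not refitted with this block.

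Leaving out each animal gave 0 to 1 members higher and 0 to 1 lower in liver, 0 to 2 lower in kidney, 2 to 5 higher and 9 to 26 lower in ileum, 9 to 14 higher and 0 to 1 lower in adipose tissue, 1 to 2 higher and 12 to 27 lower in the difference between these tissues, and 0 to 2 lower in ileum than in the 12 labels. The cause was not tested in any of these. No called difference of a named member changed sign, and the other called members were not checked for this. The median liver minus kidney difference of the members, at -0.03 (log2), ran from -0.09 to 0.07 and was 0.20 after quantile normalization. Depth is unknown, so the counting error of low values could not be given, and a listed 0 may be a failed estimate.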
